A study of Mus musculus with 61 samples.

Results

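The data described here are 6 of the 61 RNA-seq libraries of a mouse study of STAT5B mutations, namely 3 libraries of WT CD4+ T cells transduced with a retrovirus encoding STAT5B Y665F and 3 of WT CD4+ T cells transduced with the empty vector, chosen by their titles. The cells came from C57BL/6 mice at 2 months of age. Naive CD4+ T cells (CD44 low, CD25-) were sorted from pooled lymph nodes and spleens, activated through the T cell receptor and CD28, transduced, kept for 48 h with IL-2 and sorted again as live CD4+ GFP+ cells. Both groups thus carried a vector, GFP, receptor activation and IL-2, and both kept their own Stat5a and Stat5b. The genotype entry of every CD4 library in the labels, WT ones included, reads Stat5a/b flox/flox, so that WT and null cells were told apart by the titles and by the study's methods, in which the null cells lost floxed Stat5a/b through Cd4-Cre. The other vectors of the same experiment, STAT5B, STAT5B N642H and STAT5B Y665H, were sequenced in 3 WT libraries each, and all 5 vectors also in 3 libraries each of Stat5a/b-null cells. Nothing in the labels says whether replicates came from separate animals or cultures, so the p-values measure the spread between these libraries.

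STAT5A and STAT5B are transcription factors that cytokine receptors activate through Janus kinases. A phosphorylated tyrosine near the end of one STAT5 molecule binds the SH2 domain of the next, and the dimer binds DNA at palindromic TTCNNNGAA elements. In T cells, IL-2 and the other cytokines of the common gamma chain act through STAT5 on survival, proliferation, the IL-2 receptor itself, helper lineage choice and the feedback inhibitors of the SOCS and CIS family. The tyrosine that Y665F replaces lies in the SH2 domain. N642H, in the same domain, is a known leukaemia-associated activating mutation.

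The codon altered in the vector is shown with 30 bases on each side, to place the change in the gene. It lies in exon 16 of transcript Stat5b-202, which encodes 786 residues, at chr11:100787291-100787293 on the minus strand of GRCm38, and the sequence is the reference of the GENCODE release, with the tyrosine codon in capitals. A codon for phenylalanine replaces it in the vector, whose own sequence was not used here.

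In exon 16 of Stat5b, the codon changed in Y665F in capitals, 5′ to 3′ on the coding strand:
Stat5b, codon changed in Y665F: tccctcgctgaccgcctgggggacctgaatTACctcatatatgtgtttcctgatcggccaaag

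The 6 libraries held 25675727 to 47040687 reads on genes, so that a gene at 1 CPM, 1 read in 1000000 after adjustment by TMM factors, rests on 24.8 reads or more in each. CPM compare a gene between libraries and are not scaled to gene length. The 14 CD4 T cell markers summed to 6041 to 7687 CPM with the empty vector and 5503 to 6275 CPM with Y665F, and none of them was called in either direction. Markers of other cells were low in both groups. Those of CD8 T cells, of which both were tested, summed to at most 8.57 CPM, those of B cells (10 of 12 tested) to at most 4.33 CPM, those of natural killer cells (5 of 7) to at most 2.78 CPM and those of the erythroid lineage (4 of 8) to at most 1.51 CPM. Myeloid markers (11 of 14 tested) summed to 4.36 to 7.11 CPM with the empty vector and 2.78 to 5.44 CPM with Y665F, and of all these markers 1, Itgam, was called, lower with the block only (1.39, 1.05 and 1.32 CPM with the empty vector and 0.242, 0.174 and 1.02 CPM with Y665F, log2 fold change -1.54 ± 0.44, adjusted p = 0.0245 with the block). In bulk RNA, fewer cells of a type and less RNA per cell cannot be told apart. In both groups the library numbered 3 stood apart from libraries 1 and 2. Deviations from the group mean correlated across 13002 genes between libraries of the same number at 0.246, 0.397 and 0.663. Libraries of different numbers reached 0.287, for empty vector 1 with Y665F 2, above the 0.246 of empty vector 1 with Y665F 1. Pairing of libraries 1 and 2 by number was thus uncertain. A further fit took the replicate number as a block, and its p-values rest on that pairing. Results with the block are named as such, and the others are from the fit without it.

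Stat5b transcripts, of which reads from the vector and from the cell's own gene were not separated by the counting, were 185, 199 and 203 CPM with the empty vector and 395, 359 and 471 CPM with Y665F. All libraries with Y665F lay above all libraries with the empty vector. The mean rose from 196 ± 9.23 to 408 ± 57.6 CPM (SD, n = 3), which was 209% of the empty vector (exact two-sided permutation test p = 0.1, the smallest that 3 against 3 allow, and log2 fold change 1.06 ± 0.14, adjusted p = 0.00167 in the fit across all genes). Without Y665F library 3 its log2 fold change was 0.94, under the threshold. Stat5a, at 135, 157 and 169 CPM with the empty vector and 135, 95.5 and 159.7 CPM with Y665F, was not called (log2 fold change -0.24 ± 0.16, adjusted p = 0.552). The groups overlapped.

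The transcriptomes were compared with edgeR's quasi-likelihood test, and a gene was called where its Benjamini-Hochberg adjusted p was under 0.05 and its log2 fold change above 1 or below -1. Of 20509 genes tested, 104 were higher with Y665F (0.507% of the genes tested) and 41 lower (0.2%). The 104 include Stat5b, which the vector carries. With the replicate number as a block, 334 were higher (1.63%) and 167 lower (0.814%). All 145 genes of the first fit were among these 501 with the same sign. Of the 356 genes called only with the block, 336 also had a log2 fold change beyond 1 without it, and so missed only its adjusted p. In all 145 genes the 3 libraries with Y665F lay to one side of the 3 with the empty vector. The thresholds favour such genes, and the share of them over all genes tested was not counted. The rises were larger than the falls. Genes beyond the fixed rule, such as Igf2, Foxp3 and Klf2, are named after their values were seen. The median log2 fold change of the genes called higher was 2.37, with 63 genes above 2 and 57 genes under a mean of 1 CPM with the empty vector. Genes called lower had a median of -1.26, with 3 genes beyond -2, and all were above 1 CPM. Over all genes tested the median was -0.08, and over those above 1 CPM it was 0.00. The count without the block depended on single libraries. Without Y665F library 3 it was 420, without empty vector libraries 1 and 2 it was 54 and 32, without Y665F libraries 1 and 2 it was 39 and 44, and without the 5 WT libraries numbered 3 it was 500. With the block it ranged from 359 to 647 when any 1 library was left out.

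**Figure D1:**
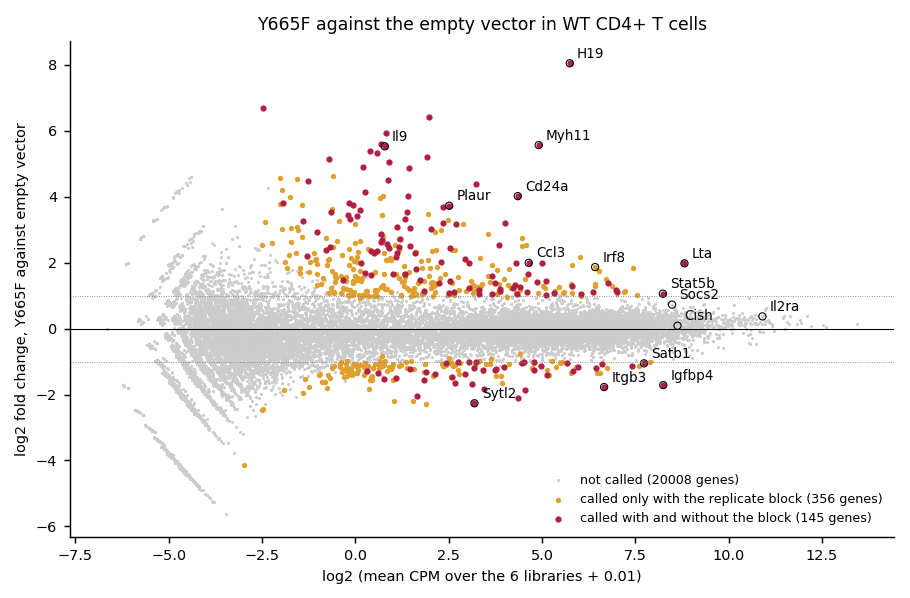
Each point is 1 of 20509 genes, placed by its log2 mean CPM over the 6 libraries (horizontal) and its log2 fold change between Y665F and the empty vector without the block (vertical), with dotted lines at 1 and -1. The 145 genes called in both fits are red and the 356 called only with the block are yellow, and most of the largest rises lie at low expression, while H19, at 8.05, and Myh11, at 5.57, lie apart from them.

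Several transcripts rose from near absence. H19, an imprinted long noncoding RNA at chr7:142575529-142578143 that is abundant in fetal tissue, was 0.567, 0.289 and 0.371 CPM with the empty vector and 112, 109 and 99.5 CPM with Y665F (log2 fold change 8.05 ± 0.69, adjusted p = 7.12e-05). It was the largest rise of all genes tested and differed little among the 3 libraries with Y665F. Igf2, its imprinted neighbour, which encodes insulin-like growth factor 2, was 0, 0 and 0.0824 CPM with the empty vector and 1.13, 0.522 and 1.87 CPM with Y665F (adjusted p = 0.0115), with too few reads in the empty vector for a fold. Both genes of this pair were thus called, and neither overlapped between the groups, which held for all 145 called genes.

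Myh11, the smooth muscle myosin heavy chain (chr16:14194535-14291372), was 1.42, 1.38 and 0.948 CPM with the empty vector and 67.9, 80.0 and 29.0 CPM with Y665F (log2 fold change 5.57 ± 0.69, adjusted p = 0.00141). Oxtr, the oxytocin receptor, was 0.0567, 0.0445 and 0.0824 CPM with the empty vector and 3.67, 3.21 and 2.60 CPM with Y665F (log2 fold change 5.60 ± 0.67, adjusted p = 0.00105). Dppa1, a gene named for its expression in pluripotent cells, was 0, 0.0890 and 0.0618 CPM with the empty vector and 2.42, 5.07 and 2.92 CPM with Y665F (log2 fold change 5.94 ± 0.75, adjusted p = 0.00154). In these 3 genes the lowest library with Y665F was at least 20.4 times the highest with the empty vector, and the low levels rest on few reads, 8 for Oxtr and 7 for Dppa1 over all empty vector libraries. The rest of the 10 largest rises at a mean of at least 1 CPM were Gm4926 (6.42), Cuzd1 (5.4), Tmem125 (5.32), 2900011O08Rik (5.20) and Ubd (5.07) (all log2 fold changes), together with Il9. Ubd encodes the ubiquitin-like modifier FAT10. Cuzd1 overlaps Fgfr2 on the same strand, so that its reads may be shared. H19, Myh11, Oxtr, Dppa1, Gm4926 and Tmem125 stayed called without the block whichever of the 6 libraries was left out. Cuzd1 (0.176) and Ubd (0.112) lost the call without the block when any 1 library other than Y665F 3 was left out, as did 2900011O08Rik (0.0625) when empty vector 2 was left out (highest adjusted p in parentheses).

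Cytokine and chemokine genes were among the rises. Il9, which encodes the type 2 cytokine interleukin-9 (chr13:56479277-56482246), was 0.0567, 0.0668 and 0.0824 CPM with the empty vector and 4.31, 4.27 and 1.53 CPM with Y665F (log2 fold change 5.53 ± 0.80, adjusted p = 0.00424), with 9 reads in all with the empty vector. Lta, encoding lymphotoxin alpha of the TNF family (chr17:35203165-35205351), was 221, 219 and 107 CPM with the empty vector and 927, 827 and 402 CPM with Y665F (log2 fold change 1.98 ± 0.46, adjusted p = 0.0492; log2 fold change 1.96 ± 0.11, adjusted p = 2.08e-10 with the block). Within each replicate number, Lta was 3.75 to 4.19 times as high with Y665F, although both libraries numbered 3 held less of it. Ccl3, an inflammatory chemokine, was 8.84, 7.30 and 13.9 CPM with the empty vector and 38.7, 42.8 and 38.4 CPM with Y665F (log2 fold change 1.99 ± 0.27, adjusted p = 0.00234). Its neighbour Ccl4, a related chemokine, was 13.4, 10.4 and 24.6 CPM with the empty vector and 37.6, 41.9 and 48.4 CPM with Y665F (log2 fold change 1.4 ± 0.32, adjusted p = 0.0424). Nppc, the precursor of C-type natriuretic peptide, was 0.368, 0.401 and 0.989 CPM with the empty vector and 3.87, 5.02 and 6.00 CPM with Y665F (log2 fold change 3.06 ± 0.37, adjusted p = 0.00105). Each of these genes rose in 3 of 3 pairs and without overlap, as did all 104 genes called higher. Il9, Ccl3 and Nppc stayed called without the block whichever of the 6 libraries was left out. Lta (0.210) lost the call without the block when any 1 library other than Y665F 3 was left out, as did Ccl4 (0.184) when any 1 library other than empty vector 3 or Y665F 3 was left out (highest adjusted p in parentheses).

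The chosen list of Th2 genes with Il9 had 17 members, of which Il9 was called, and Il4 and Il24 were added with the block. Beside this and the other lists, 0.507% of all genes tested were called higher and 0.2% lower, or 1.63% and 0.814% with the block. Il4, the cytokine that defines Th2 cells, was 0.765, 0.779 and 0.309 CPM with the empty vector and 3.47, 5.14 and 2.04 CPM with Y665F (log2 fold change 2.55 ± 0.34, adjusted p = 2.94e-05 with the block). Gata3, the transcription factor of that lineage, had a log2 fold change of -0.53 (adjusted p = 0.0476), Il5 0.77 (0.880) and Il13 1.12 (0.445), none called. Of 15 TNF ligands only Lta was called in either fit, and Tnf and Ltb, which lie beside it, had log2 fold changes of 0.33 and 0.21. Of 15 TNF receptors, none was called without the block and 2 were higher with it. Tnfrsf8, which encodes CD30, went from 1.30, 0.846 and 0.989 to 5.12, 5.04 and 1.53 CPM (log2 fold change 1.76 ± 0.37, adjusted p = 0.00301 with the block), and Tnfrsf13b, which encodes the receptor TACI, had a log2 fold change of 1.02 (adjusted p = 2.44e-05). Of 25 chemokine ligands and receptors, Ccl3 and Ccl4 were called, and with the block Cx3cr1 was also higher and Cxcr6 lower.

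At the cell surface, Plaur, the receptor of urokinase, was 0.652, 1.16 and 0.577 CPM with the empty vector and 13.5, 13.3 and 5.04 CPM with Y665F (log2 fold change 3.73 ± 0.59, adjusted p = 0.00640). Plau, urokinase itself, was 0.964, 0.667 and 0.680 CPM with the empty vector and 4.47, 3.90 and 2.04 CPM with Y665F (log2 fold change 2.17 ± 0.45, adjusted p = 0.0272). Cd24a, a small glycosylated surface protein (chr10:43578284-43584265), was 2.52, 2.29 and 2.31 CPM with the empty vector and 31.6, 64.2 and 19.5 CPM with Y665F (log2 fold change 4.02 ± 0.62, adjusted p = 0.00617). Plau and its receptor Plaur were thus both called. Muc1, a membrane mucin, was 0.368, 0.645 and 0.330 CPM with the empty vector and 5.04, 5.54 and 3.09 CPM with Y665F (log2 fold change 3.33 ± 0.53, adjusted p = 0.00640), and Coro6, an actin-binding protein, 1.30, 0.489 and 0.433 CPM with the empty vector and 9.91, 11.8 and 6.71 CPM with Y665F (log2 fold change 3.70 ± 0.69, adjusted p = 0.0159). Sema7a, a membrane-anchored semaphorin, was 4.65, 2.94 and 1.92 CPM with the empty vector and 36.0, 30.03 and 21.01 CPM with Y665F (log2 fold change 3.21 ± 0.63, adjusted p = 0.0211), and Sema6a, Sema6d and Nrp2, a semaphorin receptor, were called as well with log2 fold changes of 2.34, 2.73 and 3.52. Cd80, a ligand of CD28 and CTLA-4, was 47.6, 47.3 and 33.7 CPM with the empty vector and 103, 93.9 and 69.0 CPM with Y665F (log2 fold change 1.05 ± 0.24, adjusted p = 0.0421). Plaur, Muc1 and Nrp2 stayed called without the block whichever of the 6 libraries was left out. Plau (0.134), Sema7a (0.109) and Cd80 (0.203) lost the call without the block when any 1 library other than Y665F 3 was left out, as did Cd24a (0.0522) and Sema6d (0.0510) when empty vector 2 was left out, and Coro6 (0.0981) and Sema6a (0.0929) when any 1 library other than empty vector 1 or Y665F 3 was left out (highest adjusted p in parentheses).

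**Figure D2:**
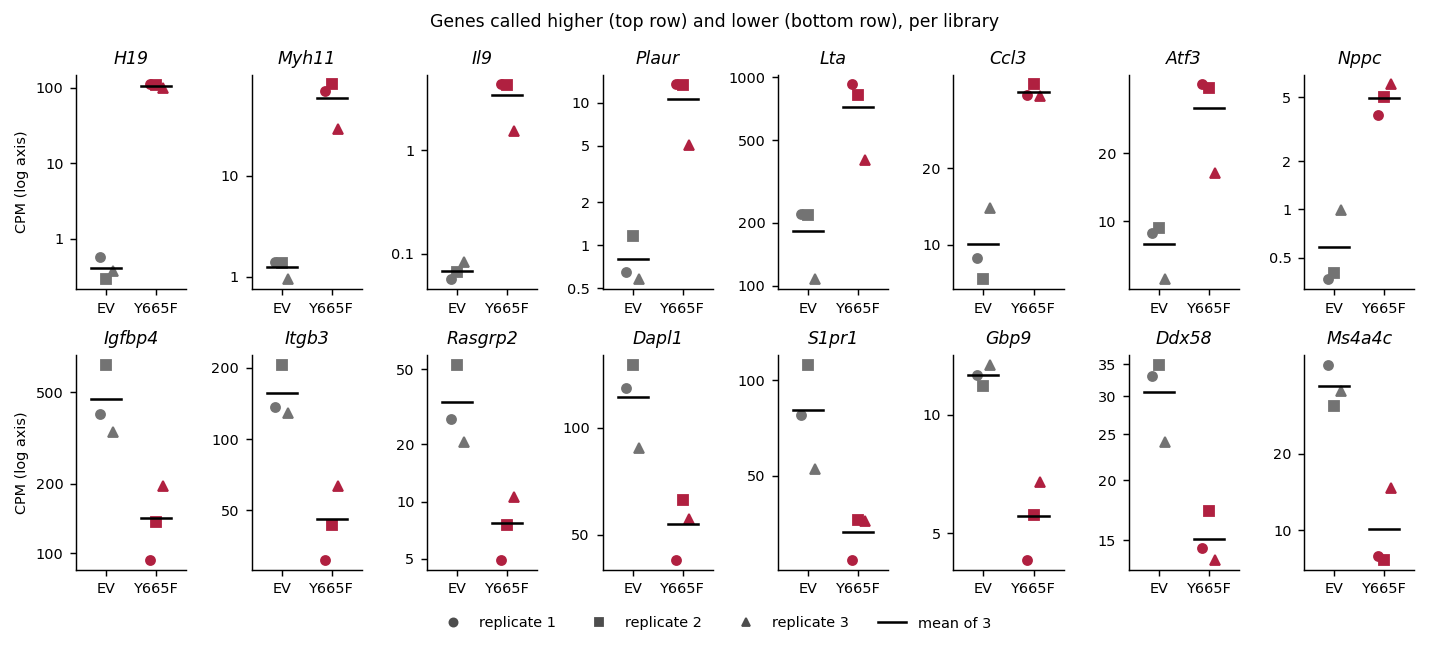
Each panel shows 1 gene in CPM on a log axis, with 3 libraries of the empty vector (EV, grey) and 3 of Y665F (red), the symbol giving the replicate number and the bar the mean of 3. The groups do not overlap in any panel, as in all 145 genes called without the block. The triangles, replicate 3, often lie apart from the others in both groups, as for Lta at 107 and 402 CPM.

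Most known STAT5 targets that mark IL-2 signalling were not called. In a list of 26 STAT5 target and feedback genes, Nppc and Lta were called in either fit and none was lower. Of all genes tested, 0.507% were called higher without and 1.63% with the block. The list median was 0.23 against 0.00 over genes at a mean of at least 1 CPM, as all 26 were, and 19 members were above 0. Socs2, a feedback inhibitor of cytokine receptors, was 297, 319 and 193 CPM with the empty vector and 451, 529.5 and 358 CPM with Y665F, so that the groups did not overlap. Its log2 fold change of 0.73 ± 0.23 stayed under the fold threshold in both fits (adjusted p = 0.138 without and 3.66e-05 with the block). Cish, which encodes the feedback inhibitor CIS, was 362, 499 and 292 CPM with the empty vector and 415, 392 and 417 CPM with Y665F (log2 fold change 0.09 ± 0.22, adjusted p = 0.919 without and 0.610 with the block). Il2ra, the alpha chain of the IL-2 receptor, was 1846, 1929 and 1240.0 CPM with the empty vector and 2334, 2394 and 1755 CPM with Y665F (0.37 ± 0.22, 0.484). With the block it was under the fold threshold only (0.38 ± 0.10, 0.0167). Bcl2, an inhibitor of apoptosis, was 482, 448 and 333 CPM with the empty vector and 459, 415 and 290.0 CPM with Y665F (-0.12 ± 0.23, 0.892 without and 0.501 with the block). The libraries of the 2 groups overlapped in all 3 genes. Pim1, Pim2, Myc, Ccnd2 and Socs1 had log2 fold changes of 0.12, 0.22, 0.58, 0.06 and 0.08. None of 12 common gamma chain receptors and Janus kinases was called in either fit, and none of the 6 STAT genes other than Stat5b. The lists of cell cycle and replication genes (30 members, median -0.02), cholesterol and fatty acid synthesis (25, 0.09) and amino acid transporters (12, 0.23) had no call in either fit. Slc3a2 and Slc7a5, the subunits of the large neutral amino acid transporter, had log2 fold changes of 0.37 ± 0.12 and 0.43 ± 0.19 (adjusted p = 0.163 and 0.314). With the block these were 0.37 ± 0.10 and 0.45 ± 0.13 (adjusted p = 0.0140 and 0.0206), under the fold threshold. Lists of 22 cytotoxic granule genes and 9 Akr1c genes had none either.

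Irf8, Batf3 and Foxp3, all transcription factors, were higher with the block only. Irf8, an interferon regulatory factor (chr8:120736358-120756694), was 55.3, 38.3 and 17.2 CPM with the empty vector and 184, 131 and 88.5 CPM with Y665F (log2 fold change 1.87 ± 0.53, adjusted p = 0.104; log2 fold change 1.96 ± 0.16, adjusted p = 4.17e-08 with the block). Batf3, an AP-1 family factor, was 8.76, 7.12 and 1.18 CPM with the empty vector and 49.5, 45.1 and 19.8 CPM with Y665F (log2 fold change 2.97 ± 0.28, adjusted p = 3.24e-07 with the block). Foxp3, the transcription factor of regulatory T cells, was 9.78, 9.39 and 5.44 CPM with the empty vector and 21.7, 21.4 and 26.9 CPM with Y665F (log2 fold change 1.63 ± 0.28, adjusted p = 4.25e-04 with the block). In all 3 genes the groups did not overlap, although replicate 3 of Irf8 and Batf3 was the lowest of each group. Irf8 overlaps Gm20388 and Foxp3 overlaps Flicr on the same strand, so that their reads may be shared. The Th1 list (16 members) had no call without the block and 4 rises with it, Irf8, Ifng, Tbx21 and Il18r1, beside 1.63% of all genes tested. Ifng, encoding interferon gamma, went from 0.255, 0.134 and 0.185 to 0.725, 0.869 and 0.311 CPM (log2 fold change 1.67 ± 0.50, adjusted p = 0.0307 with the block), and Tbx21, encoding T-bet, from 1.19, 0.868 and 0.680 to 2.62, 1.91 and 1.64 CPM (log2 fold change 1.18 ± 0.27, adjusted p = 0.00618 with the block). Il12rb2, a chain of the IL-12 receptor, was not called in either fit, at 11.1, 12.3 and 3.69 CPM with the empty vector and 17.6, 24.8 and 8.33 CPM with Y665F (log2 fold change 0.90 ± 0.60, adjusted p = 0.549; log2 fold change 0.95 ± 0.14, adjusted p = 5.53e-05 with the block). Of 20 regulatory T-cell genes, Gpr83 was higher in both fits (8.11, 8.63 and 9.85 CPM with the empty vector and 13.7, 18.6 and 29.0 CPM with Y665F; log2 fold change 1.21 ± 0.24, adjusted p = 0.0213), Foxp3 higher and Lrrc32 and Entpd1 lower with the block, and Il2ra, Ctla4, Ikzf2 and Il10 were not called. Gpr83 (0.114) lost the call without the block when any 1 library other than empty vector 3 or Y665F 1 was left out (highest adjusted p in parentheses). In the follicular helper list (16) Pou2af1 and Il6st, and in the Th17 list (13) Ahr, were lower with the block, beside 0.814% of all genes tested. Il10ra, a chain of the IL-10 receptor, was not called (log2 fold change 0.27 ± 0.48, adjusted p = 0.878).

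The unfolded protein response list (23 members) had a median of 0.40, against 0.00 over genes at a mean of at least 1 CPM, as all 23 were. In it 1 gene was called higher without and 3 with the block, beside 0.507% and 1.63% of all genes tested. Atf3, a stress-induced factor, was called at 8.84, 9.35 and 5.54 CPM with the empty vector and 40.2, 38.6 and 16.4 CPM with Y665F (log2 fold change 2.00 ± 0.45, adjusted p = 0.0383). Trib3 and Asns, both known targets of ATF4, were higher with the block (log2 fold changes 1.26 and 1.17, adjusted p = 8.91e-07 and 7.44e-06). Xbp1, the factor of the IRE1 branch, was 322, 333 and 200.3 CPM with the empty vector and 468, 546 and 346 CPM with Y665F. It was under the fold threshold in both fits (log2 fold change 0.67 ± 0.25, adjusted p = 0.236; log2 fold change 0.68 ± 0.10, adjusted p = 8.76e-05 with the block). Hspa5, the chaperone BiP, was not called either (log2 fold change 0.46, adjusted p = 0.121). Egln3, a hypoxia-induced hydroxylase, was the 1 of 26 glycolysis and hypoxia genes that was called, with the block only (106, 88.2 and 33.1 to 336, 351 and 122 CPM; log2 fold change 1.85 ± 0.16, adjusted p = 8.60e-08 with the block). Cdkn1a, encoding the cell cycle inhibitor p21, was 36.5, 58.6 and 86.7 CPM with the empty vector and 123, 161 and 190.1 CPM with Y665F (log2 fold change 1.38 ± 0.30, adjusted p = 0.0342). The values rose in each of the 3 pairs. Bcl2l11, encoding the death-promoting protein BIM, was 109, 118 and 179 CPM with the empty vector and 35.2, 35.5 and 90.2 CPM with Y665F and lower with the block only (log2 fold change -1.33 ± 0.47, adjusted p = 0.196; log2 fold change -1.45 ± 0.18, adjusted p = 1.35e-05 with the block), and it was the 1 call among 18 genes of the BCL2 family. Atf3 (0.167) lost the call without the block when any 1 library other than Y665F 3 was left out, as did Cdkn1a (0.15) when any 1 library other than empty vector 3 or Y665F 3 was left out (highest adjusted p in parentheses).

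Part of the genes of naive T cells were lower. Of 20 naive and quiescent T-cell genes, 5 were called lower and none higher, beside 0.2% of all genes tested called lower, and the list median was -0.55. With the block the count was 8, beside 0.814%. Igfbp4, an insulin-like growth factor binding protein typical of naive cells (chr11:99041244-99054392), was 404, 657 and 337 CPM with the empty vector and 93.3, 136 and 196 CPM with Y665F (log2 fold change -1.71 ± 0.29, adjusted p = 0.00885). S1pr1, the receptor that lets T cells leave lymph nodes, was 77.9, 111 and 52.7 CPM with the empty vector and 27.2, 36.4 and 36.1 CPM with Y665F (log2 fold change -1.28 ± 0.25, adjusted p = 0.0219). Dapl1 was 129, 150.2 and 88.0 CPM with the empty vector and 42.5, 62.7 and 55.3 CPM with Y665F (log2 fold change -1.19 ± 0.20, adjusted p = 0.00879). Satb1, a chromatin organiser, and Nsg2 completed the 5, at 244, 339 and 279 CPM with the empty vector and 119, 131 and 165 CPM with Y665F and 46.4, 58.4 and 25.1 CPM with the empty vector and 19.1, 20.3 and 20.02 CPM with Y665F (log2 fold changes -1.05 and -1.13, adjusted p = 0.0159 and 0.0388). In each of these genes replicate 2 of the empty vector was the highest library. Klf2, the transcription factor that acts on S1pr1, was 84.2, 177 and 122 CPM with the empty vector and 24.5, 39.7 and 85.1 CPM with Y665F, so that the groups overlapped (log2 fold change -1.36 ± 0.40, adjusted p = 0.120; log2 fold change -1.43 ± 0.20, adjusted p = 4.72e-05 with the block). Klf3 was also lower with the block only (log2 fold change -1.29, adjusted p = 1.10e-04), whereas Ccr7, Lef1 and Tcf7 were not called, with log2 fold changes of -0.54, -0.47 and -0.48. Il7r, encoding the IL-7 receptor, had a log2 fold change of 0.75 (adjusted p = 0.638). Igfbp4 (0.0602) and Satb1 (0.109) lost the call without the block when any of empty vector 2, Y665F 1 and Y665F 2 was left out, as did S1pr1 (0.134) and Nsg2 (0.176) when any 1 library other than empty vector 3 or Y665F 3 was left out, and Dapl1 (0.0714) when either empty vector 2 or Y665F 1 was left out (highest adjusted p in parentheses).

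The 10 largest falls among called genes included Rasgrp2, Rap1gap2 and Itgb3. Rasgrp2, an exchange factor of Rap1, was 27.3, 52.5 and 20.7 CPM with the empty vector and 4.92, 7.55 and 10.6 CPM with Y665F (log2 fold change -2.11 ± 0.39, adjusted p = 0.0156). Rap1gap2, which inactivates Rap1, was 5.21, 6.41 and 3.46 CPM with the empty vector and 0.846, 1.19 and 1.56 CPM with Y665F (log2 fold change -2.05 ± 0.44, adjusted p = 0.0292). Itgb3, the integrin beta 3 chain (chr11:104608000-104670476), was 136, 206 and 129 CPM with the empty vector and 30.8, 43.3 and 63.4 CPM with Y665F (log2 fold change -1.77 ± 0.29, adjusted p = 0.00787). No overlap between the groups was a condition for being among these 10. Sytl2, a synaptotagmin-like protein of vesicle transport, had the largest fall of the genes called without the block, at 11.2, 22.4 and 11.7 CPM with the empty vector and 2.26, 2.21 and 4.93 CPM with Y665F (log2 fold change -2.27 ± 0.48, adjusted p = 0.0279). Ms4a4c and Pyhin1 followed with log2 fold changes of -1.86 ± 0.38 and -1.83 ± 0.28 (adjusted p = 0.0232 and 0.00617). Icosl, the ligand of the costimulatory receptor ICOS, was 13.5, 19.1 and 7.52 CPM with the empty vector and 3.51, 4.64 and 4.33 CPM with Y665F (log2 fold change -1.68 ± 0.38, adjusted p = 0.0414), and Trpm6, a magnesium channel, and Wscd2 fell by 1.66 and 1.57 on the log2 scale. Pyhin1 stayed called without the block whichever of the 6 libraries was left out. Rasgrp2 (0.0993), Itgb3 (0.0602) and Trpm6 (0.0827) lost the call without the block when any of empty vector 2, Y665F 1 and Y665F 2 was left out, as did Rap1gap2 (0.167), Sytl2 (0.169), Icosl (0.203) and Wscd2 (0.124) when any 1 library other than empty vector 3 or Y665F 3 was left out, and Ms4a4c (0.135) when any 1 library other than Y665F 3 was left out (highest adjusted p in parentheses).

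Interferon-inducible GTPases and sensors were lower in part. Of 18 guanylate-binding proteins and related GTPases tested, 5 were called lower in both fits and none higher, beside 0.2% of all genes tested called lower without and 0.814% with the block. Tgtp1 was 11.96, 13.3 and 7.93 CPM with the empty vector and 2.5, 4.57 and 5.61 CPM with Y665F (log2 fold change -1.38 ± 0.25, adjusted p = 0.0148), Gbp8 15.1, 14.7 and 15.2 CPM with the empty vector and 5.76, 5.04 and 8.16 CPM with Y665F (log2 fold change -1.24 ± 0.22, adjusted p = 0.0126) and Gbp9 12.6, 11.9 and 13.4 CPM with the empty vector and 4.27, 5.56 and 6.74 CPM with Y665F (log2 fold change -1.19 ± 0.22, adjusted p = 0.0148). Gbp4 and Tgtp2 had log2 fold changes of -1.01 and -1.05, while Gbp2, Gbp5 and Igtp, with 0.09, 0.32 and 0.38, were not called. Gbp4, Gbp8 and Gbp9 overlap on the same strand and, like Tgtp1 and Tgtp2, are closely related copies, so how the counting shared reads among them is uncertain. Ddx58, which encodes the RNA sensor RIG-I (chr4:40203773-40239828), was 33.0, 34.8 and 24.1 CPM with the empty vector and 14.5, 17.2 and 13.7 CPM with Y665F (log2 fold change -1.02 ± 0.16, adjusted p = 0.00639). It was the 1 call without the block among 30 interferon-induced genes, of which 24 had a log2 fold change under 0 (median -0.53). With the block, Irf7, a factor of the interferon response, and Oas2 were lower too (log2 fold changes -1.17 and -1.78, adjusted p = 1.95e-04 and 0.0274). Ifitm3 and Ifitm1, antiviral membrane proteins, went the other way, Ifitm3 from 20.1, 41.3 and 8.20 to 67.9, 148 and 51.3 CPM (log2 fold change 1.94 ± 0.67, adjusted p = 0.187; log2 fold change 2.08 ± 0.17, adjusted p = 5.74e-08 with the block). Tgtp1 (0.0929), Gbp9 (0.0935) and Tgtp2 (0.190) lost the call without the block when any 1 library other than empty vector 3 or Y665F 3 was left out, as did Gbp8 (0.0859) when any of empty vector 2, Y665F 1 and Y665F 2 was left out, and Gbp4 (0.0625) when either empty vector 2 or Y665F 1 was left out, and Ddx58 (0.0559) when any 1 library other than empty vector 3 or Y665F 2 was left out (highest adjusted p in parentheses).

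**Figure D3:**
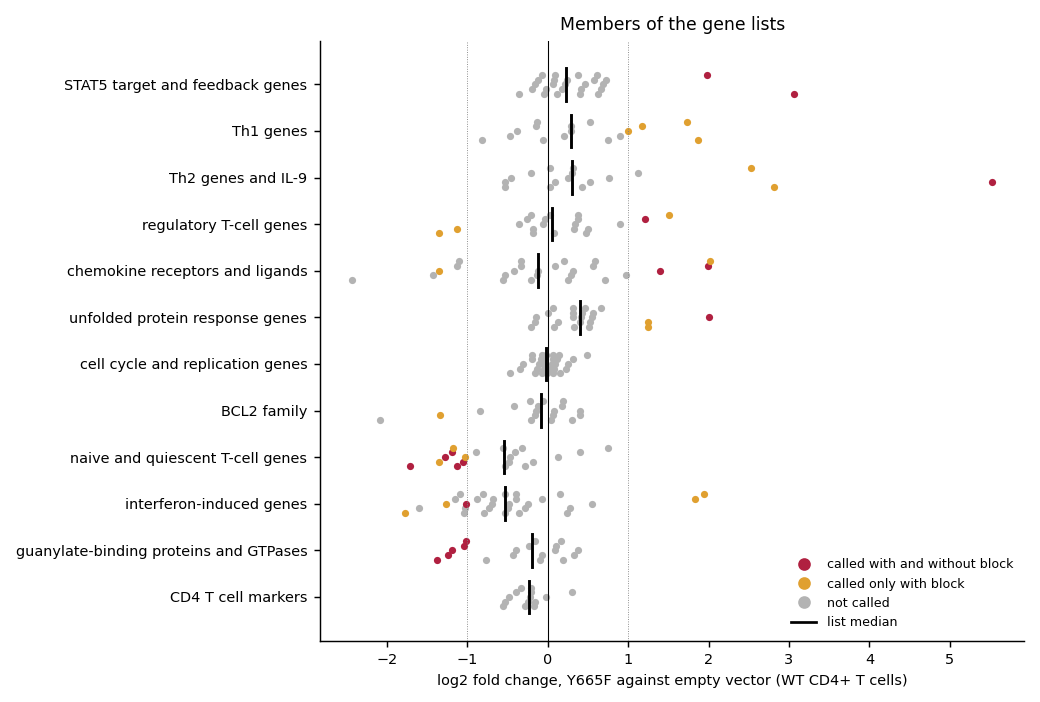
Each point is a gene of 1 of 12 lists, placed by its log2 fold change between Y665F and the empty vector without the block, with the list median as a black bar, calls in both fits in red and calls only with the block in yellow. The naive list and the GTPases have calls on the left only, the STAT5 targets are mostly grey with a median of 0.23, and Il9 lies farthest to the right.

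In the study's own list of 113 genes bound by STAT5B and raised by Y665F in Stat5a/b-null cells, 11 were higher in WT cells and none lower, with a median of 0.37. With the block 24 were higher and 1, Lrrc32, lower. In its list of other genes raised in null cells, of which 204 were counted after leaving out Stat5b, 31 were higher and 1, Igfbp4, lower, with a median of 0.65, and with the block the counts were 75 and 3. Over all genes tested, 0.507% were called higher and 0.2% lower, and 1.63% and 0.814% with the block. Both lists were chosen by the study from null libraries of the same experiment and are not independent evidence of the direction. The bound genes called in WT cells were Plaur, Coro6, Muc1, Alox15, Atf3, Ccl3, Lta, Ccl4, Nek6, Slco3a1 and Gpr83. Alox15 encodes a lipoxygenase, Nek6 a kinase of mitosis and Slco3a1 a transporter of organic anions. Cish, Socs1, Socs2, Il2ra, Osm, Pim1 and Bcl2 stand in the same list and were not called in either fit. Trim71, an RNA-binding protein of early development from the other list, was 0.283, 0.0668 and 0.185 CPM with the empty vector and 7.21, 6.09 and 2.38 CPM with Y665F (log2 fold change 4.88 ± 0.99, adjusted p = 0.0240). Slco3a1 stayed called without the block whichever of the 6 libraries was left out. Trim71 (0.134) lost the call without the block when any 1 library other than Y665F 3 was left out, as did Alox15 (0.0894) when any 1 library other than empty vector 1 or Y665F 3 was left out, and Nek6 (0.0515) when Y665F 2 was left out (highest adjusted p in parentheses).

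Genes beyond the lists that passed only with the block and had no overlap included Grp (4.04), Npsr1 (3.60), Cpne6 (3.22), Fes (3.11) and Neurl1a (3.06) among the rises and Vipr1 (-2.32), Pydc3 (-2.12), Rnf144a (-2.07), Pdlim4 (-2.03) and Vsig2 (-1.60) among the falls, all as log2 fold changes with the block. Fes, a tyrosine kinase, was 0.879, 1.16 and 1.03 CPM with the empty vector and 12.3, 13.9 and 4.13 CPM with Y665F, and Vipr1, a receptor of vasoactive intestinal peptide, 2.61, 5.27 and 2.25 CPM with the empty vector and 0.403, 0.273 and 1.5 CPM with Y665F.

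The palindromic letters TTCNNNGAA were searched in the 250 bases before each gene's start in the RefSeq promoters of GRCm38.p6, where they read the same on both strands. A gene was counted once if any of its promoter windows held the letters. Of the 104 genes called higher, 78 had a promoter entry and 9 of these held the letters (11.5%), and of the 41 called lower 4 of 28 did (14.3%). Of the 15142 genes tested that had an entry, 7.8% did. Counted by window instead, which is another measure, the share was 7.02% of all 32851 windows. With the block the shares were 13.2% (32 of 242) and 9.17% (11 of 120). A match describes the window only. The windows are shown for Lta, called higher, for Irf8, higher with the block, and for Tgtp1, called lower, to show the letters, in capitals, with up to 25 bases on each side. Lta holds another match 16 to 8 bases before its start and Irf8 another at 153 to 145.

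Promoter matches of GRCm38.p6, 5′ to 3′ on the gene's strand, with the distance of the capitals before the start:
Lta, chr17:35205470-35205528, minus strand, 152 to 144 bases: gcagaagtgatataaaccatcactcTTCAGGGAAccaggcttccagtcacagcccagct
Irf8, chr8:120736162-120736220, plus strand, 171 to 163 bases: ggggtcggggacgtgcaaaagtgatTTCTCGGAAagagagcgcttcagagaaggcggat
Tgtp1, chr11:48992301-48992359, minus strand, 88 to 80 bases: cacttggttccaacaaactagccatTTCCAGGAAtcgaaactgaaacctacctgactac

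Compared with added unmutated STAT5B, at 402, 502 and 546 CPM of Stat5b transcripts, no gene was called between Y665F and STAT5B by edgeR without the block (632 genes at an unadjusted p under 0.05) and DESeq2 called 12, all higher. With the block 44 genes were higher with Y665F (0.215% of those tested) and none lower. The count with the block was 29 without STAT5B library 3 and 94, of which 34 were lower, without Y665F library 3. H19 was 30.5, 23.8 and 6.56 CPM with STAT5B, between the empty vector and Y665F, and higher with Y665F (log2 fold change 2.62 ± 0.28, adjusted p = 3.28e-05 with the block). Plaur was 2.17, 2.69 and 0.739 CPM with STAT5B (2.55 ± 0.19, adjusted p = 1.05e-07), and Lta 422, 483 and 182 CPM (1.01 ± 0.11, adjusted p = 3.28e-05). Largest among the 44 were Dppa1 (3.59 ± 0.44, adjusted p = 1.14e-04), Il9 (2.88 ± 0.38, adjusted p = 2.82e-04), 2900011O08Rik, Oxtr and Ubd (log2 fold changes 2.84, 2.80 and 2.78). STAT5B libraries held 0.554, 0.181 and 0.117 CPM of Dppa1 and 0.831, 0.543 and 0.0778 CPM of Il9. Nppc also differed (1.73 ± 0.21, adjusted p = 1.14e-04). Igfbp4 and Itgb3, with 216, 272 and 186 and 71.0, 91.0 and 83.1 CPM with STAT5B, were not called between the 2 vectors. With the block Itgb3 was under the fold threshold only (-0.87 ± 0.17, adjusted p = 0.0218), while Igfbp4 also missed the adjusted p (-0.66 ± 0.19, adjusted p = 0.165). Against the empty vector, which this comparison does not use, STAT5B itself gave 2 calls, Y665H 1 and N642H 202. Those of STAT5B were Stat5b, which the vector carries, and H19. The call of Y665H was Stat5b, which was also among those of N642H.

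Between Y665F and N642H no gene was called by edgeR without the block (456 genes at an unadjusted p under 0.05), with the block (1472) or by DESeq2. A gene list that misses the threshold does not show that the vectors act alike. H19 was 103, 109.8 and 61.7 CPM with N642H, Lta 1036, 799.8 and 393 CPM, Plaur 14.5, 16.2 and 5.12 CPM and Irf8 308, 126 and 92.1 CPM. Il9 was 12.6, 7.98 and 5.19 CPM with N642H, each above the highest library with Y665F (log2 fold change Y665F against N642H -1.35 ± 0.58, adjusted p = 1.00). In a fit of these 2 groups alone with the block, 12 genes were lower with Y665F. Y665H libraries held 2.40, 0.580 and 0.312 CPM of H19 and 304, 263 and 109 CPM of Lta.

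**Figure D4:**
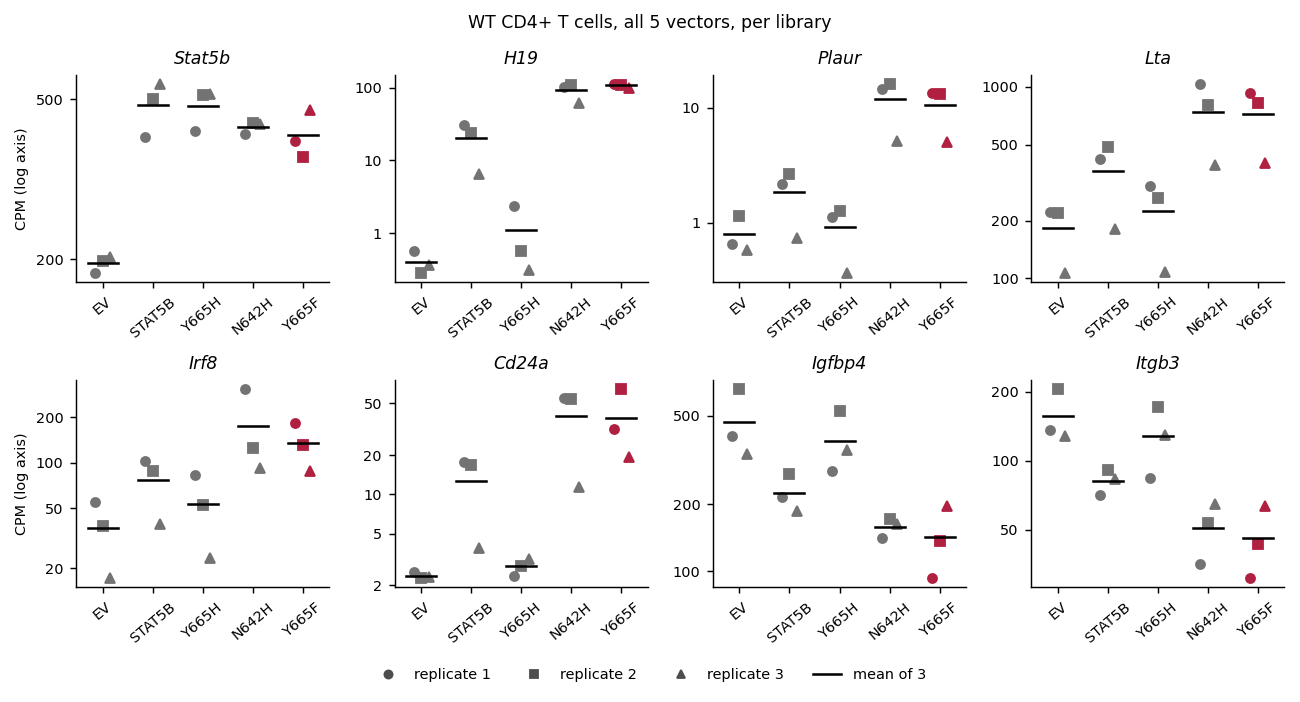
Each panel gives 1 gene in CPM on a log axis in WT cells with the empty vector (EV), STAT5B, Y665H, N642H and Y665F (red), 3 libraries each, the bar being their mean. Stat5b was 185 to 203 CPM with the empty vector and 359 CPM or more in every library of the other vectors, while the means of H19, Plaur and Lta are highest with N642H and Y665F and lie between with STAT5B.

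The response to Y665F was also compared with that in Stat5a/b-null cells, by an interaction contrast over all 30 CD4 libraries and 21975 genes. The contrast uses the same WT libraries as above, and its CPM are scaled over the 30 libraries. The log2 fold change with Y665F was higher in WT than in null cells for 8 genes (0.0364% of those tested) and lower for 84 (0.382%). The sign of this difference does not say in which background a gene changed more. All 84 had a higher mean with the empty vector in WT than in null cells, 82 had a positive log2 fold change in null cells and 69 had one within 1 of 0 in WT cells. The empty vector values are part of the contrast, so these counts are not independent of how the genes were chosen. Over the 84 genes the median was 2.09 in null and -0.12 in WT cells. In 13 of them the log2 fold change in WT cells was under -1. Socs2 went from a mean of 278 CPM to 458 CPM in WT cells and from 5.19 CPM to 259 CPM in null cells (difference of the 2 log2 fold changes -4.93 ± 0.42, adjusted p = 2.85e-08). Cish went from a mean of 396 CPM to 417 CPM in WT cells and from 22.3 CPM to 311 CPM in null cells (difference of the 2 log2 fold changes -3.73 ± 0.40, adjusted p = 3.14e-06), and Il2ra from a mean of 1721 CPM to 2215 CPM in WT cells and from 204 CPM to 1467 CPM in null cells (difference of the 2 log2 fold changes -2.48 ± 0.33, adjusted p = 6.54e-05). With the empty vector these genes were lower in null than in WT cells, by log2 fold changes of -5.75, -4.15 and -3.08 (adjusted p = 3.60e-12, 6.28e-10 and 1.44e-09). Nav1, a protein of the microtubules, and Ifit1bl1, an interferon-induced gene, were low with the empty vector in null cells too. Nav1 went from a mean of 51.7 CPM to 40.1 CPM in WT cells and from 0.319 CPM to 21.3 CPM in null cells (difference of the 2 log2 fold changes -6.49 ± 0.65, adjusted p = 8.42e-07), and Ifit1bl1 from a mean of 24.0 CPM to 7.62 CPM in WT cells and from 0.734 CPM to 9.09 CPM in null cells (difference of the 2 log2 fold changes -5.26 ± 0.73, adjusted p = 1.56e-04). Akr1c18 and Drc1 differed by -5.55 and -5.21. Igfbp4 went in opposite directions, from a mean of 482 CPM to 145 CPM in WT cells and from 31.6 CPM to 115 CPM in null cells (difference of the 2 log2 fold changes -3.60 ± 0.47, adjusted p = 6.39e-05).

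Among the 8 genes with a higher log2 fold change in WT cells, 6 had a negative one in null cells. Bcl6 (0.62 in WT and -2.13 in null cells), Pkhd1l1 (0.70 and -1.75) and Cxcr5 (0.55 and -1.56) changed more in null cells. Syt15 went from a mean of 0.126 CPM to 2.31 CPM in WT cells and from 0.234 CPM to 0.239 CPM in null cells (difference of the 2 log2 fold changes 4.10 ± 0.78, adjusted p = 0.00690). Cd24a, described above among the surface proteins, went from a mean of 2.44 CPM to 39.6 CPM in WT cells and from 8.73 CPM to 10.8 CPM in null cells (difference of the 2 log2 fold changes 3.72 ± 0.66, adjusted p = 0.00384). With the empty vector, null cells held 8.96, 7.45 and 9.77 CPM of it and WT cells 2.55, 2.42 and 2.36 CPM. Bcl6, a repressor that STAT5 is known to lower, went from a mean of 4.70 CPM to 7.30 CPM in WT cells and from 32.4 CPM to 7.44 CPM in null cells (difference of the 2 log2 fold changes 2.75 ± 0.42, adjusted p = 6.47e-04), and Cxcr5, the follicular homing receptor, from a mean of 0.862 CPM to 1.28 CPM in WT cells and from 7.66 CPM to 2.60 CPM in null cells (difference of the 2 log2 fold changes 2.11 ± 0.41, adjusted p = 0.00825). The fifth by size was Pkhd1l1 (2.45 ± 0.46). The 92 calls became 54, 58 and 55 without null empty vector libraries 1 and 2 and null Y665F library 2, 45 and 60 without WT empty vector library 2 and WT Y665F library 1, and 141 without WT Y665F library 3. With the replicate number as a block the log2 fold change was higher in WT cells for 23 genes and lower for 141. With a block of its own for each background these counts were 87 and 208. H19 and Lta responded in both backgrounds and were not called in the interaction without the block (adjusted p = 0.994 and 0.121). With the block Lta was called as a smaller response in WT cells (difference -2.05, adjusted p = 0.00256) and H19 was not (adjusted p = 0.874).

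**Figure D5:**
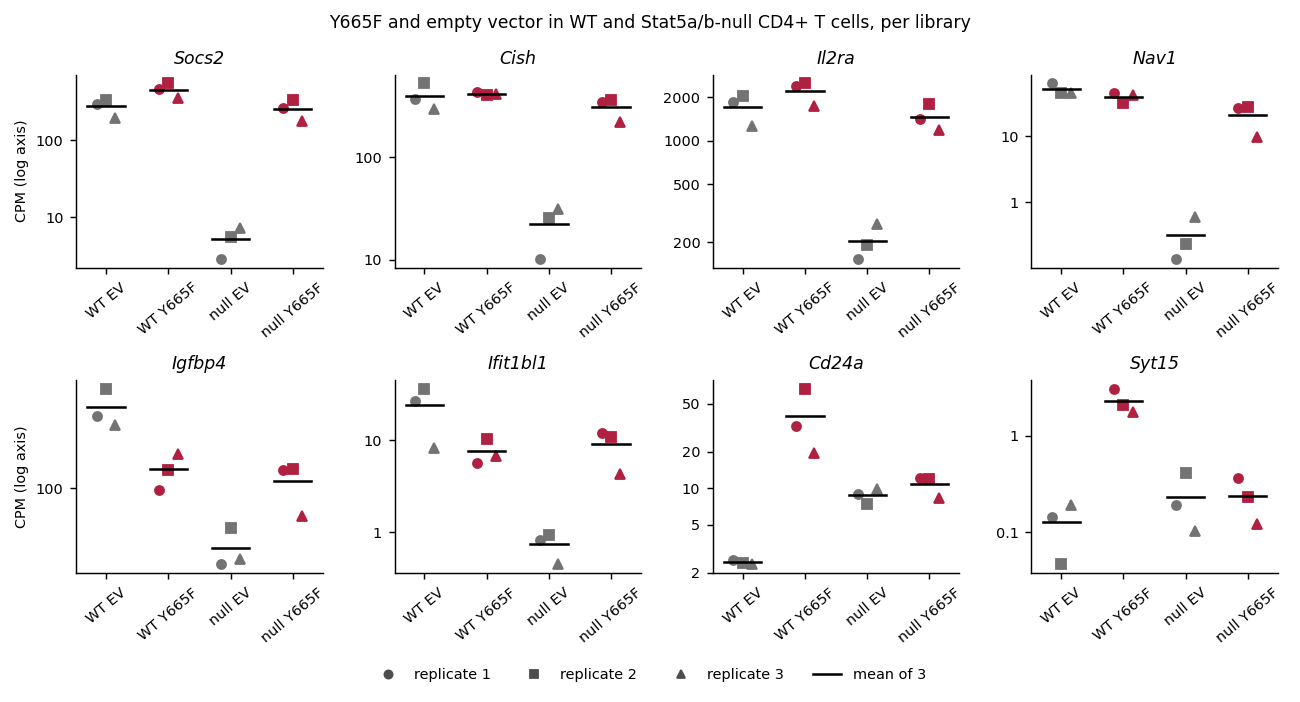
Each panel shows 1 gene in CPM on a log axis for the empty vector (EV, grey) and Y665F (red) in WT and in Stat5a/b-null cells, 3 libraries each with their mean as a bar. Socs2, Cish, Il2ra and Nav1 are low only in null cells with the empty vector, Igfbp4 and Ifit1bl1 have lower means with Y665F in WT and higher means in null cells, and Cd24a and Syt15 rise in WT cells, Cd24a from 2.44 to 39.6 CPM.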

How the data were processed

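RNA-seq counts of 30 libraries of CD4+ T cells were read, 15 WT and 15 Stat5a/b-null. Per the labels and the study's methods, total RNA was depleted of ribosomal RNA and sequenced in pairs with a stranded kit. The authors trimmed reads with Trimmomatic 0.36, aligned them to mm10 with STAR and counted them per gene with HTSeq 0.9.1. The deposited values are raw counts for 24421 gene symbols without normalization, and the 5 summary lines at the end, which name no gene, were left out (28.8 to 34.7% of the reads listed in the 6 libraries). The strand setting of the counting is not given in the sources used here, so that reads of overlapping antisense genes may not be told apart.

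The counts were tested with edgeR 4.0.16 (limma 3.58.1, R 4.3.3). Genes with at least 10 reads over the libraries of a fit were kept. TMM factors and glmQLFit were used with a group for each vector, over the 15 WT libraries, which share 1 estimate of the spread, or over all 30 for the interaction of vector and background. The study's threshold was taken, an adjusted p under 0.05 (Benjamini-Hochberg over all genes of the fit) and a log2 fold change beyond 1. Standard errors were computed as |log2 fold change| over the root of the F statistic. Alternatives were DESeq2 1.42.0, RLE size factors, other filters, a residual factor of the RUVr type, glmTreat, the groups alone, the replicate block and leaving out libraries. The pipeline was tested on data simulated without differences between replicate numbers, which does not test how either fit handles such differences. Depth sets the precision of low genes, and the values cover counting error and the spread between 3 libraries only.

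The labels give every vector the same replicate numbers. Same-numbered WT libraries deviated together in 30 of 30 pairs (correlation over 0.1, median 0.517, lowest 0.145, across 13002 genes), and the numbers were taken to pair the libraries. The threshold of 0.1 did not separate paired from unpaired libraries. Libraries 1 and 2 of different vectors also passed it, as for STAT5B 2 with Y665F 1 (0.353) and N642H 1 with Y665F 2 (0.257). Others did not, as for empty vector 1 with Y665H 2 (-0.147). Where 1 library lies apart, deviations from the group mean put the other libraries on the same side, so the threshold could not test their pairing. Pairs of different numbers reached 0.364, for STAT5B 1 with Y665F 2, against 0.145 for STAT5B 1 with Y665F 1. Pairing by number of Y665F libraries 1 and 2 was therefore uncertain. Between other vectors the numbers could differ more, as for empty vector 1 with STAT5B 1 (0.523) and with STAT5B 2 (0.0631). No replicate pair of a group differed by as little as sampling noise (chi-square per degree of freedom 28.3 to 139.8 in the 6 pairs of both groups).

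Genes named are those the study names for this experiment, the 10 largest rises and falls among called genes at a mean of at least 1 CPM without overlap, up to 3 called genes per direction of each list, and up to 5 per direction of those called only with the block, in the direct comparisons or in the interaction. Genes named beyond this rule were chosen after their values were seen. The comparison, the gene lists and the members were chosen with earlier results of these data known. The study's 2 lists are gene names of a supplementary sheet on null cells, the first block of 113 taken as the STAT5B-bound genes from its place and number. Promoter windows come from RefSeq on GRCm38.p6 and gene positions from GENCODE vM21. The ChIP-seq and spleen data were not analysed here.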

Additional observations from a re-analysis of the deposited data

Results flagged for a closer look

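The response to Y665F differed between WT and Stat5a/b-null cells by the test of the interaction for 92 genes. The log2 fold change was higher in WT cells for 8 of them and lower for 84. Of the genes named above, the difference of the 2 log2 fold changes, WT minus null, was 4.10 for Syt15, 3.72 for Cd24a, 2.75 for Bcl6, 2.45 for Pkhd1l1 and 2.11 for Cxcr5 among those higher in WT cells. It was -6.49 for Nav1, -5.55 for Akr1c18, -5.26 for Ifit1bl1, -5.21 for Drc1 and -4.93 for Socs2 among those lower. In all 84 genes with a lower log2 fold change in WT cells, the mean with the empty vector was higher in WT than in null cells. The empty vector values are part of the contrast that chose these genes, and their part in the difference was not tested. With 3 libraries a group, no test for single libraries that lie apart was made.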

How the results depend on the processing

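The 145 calls of Y665F against the empty vector had the same sign under each of 14 alternatives, and 25 were called in all 14 (22 higher, 3 lower). These 14 do not include glmTreat, the fit with no fold minimum and the fit without the libraries numbered 3. The number of calls was 316 with DESeq2 (233 higher, 83 lower), 501 with the replicate block, 507 with the block and the 2 groups alone, 258 with the RUVr-type factor, 258 with no fold minimum, 15 with glmTreat (15 higher, 0 lower) and 500 without the 5 WT libraries numbered 3. It was 32 to 420 when 1 library was left out. Of the 32 genes called without empty vector library 2 all were among the 145, and of the 420 without Y665F library 3, 142 were. RLE factors, other filters on low counts and the 2 groups alone gave 147 to 173. The count with the block, chosen as a result of its own after seeing the data, was 359 to 647 when 1 library was left out, 495 to 513 with RLE factors, DESeq2, filterByExpr or the 2 groups alone and 691 without the libraries numbered 3. With the block, 265 genes were called under each of these alternatives.

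Y665F against STAT5B gave 0 genes without the block under RLE factors, other filters, the RUVr-type factor, glmTreat and each left-out library, but 12 with DESeq2, 44 with the block and 97 (91 higher, 6 lower) with the block and the 2 groups alone. With the block it was 29 to 94 when 1 library was left out, and 52 with DESeq2. Against N642H, 12 genes were lower with the block and the 2 groups alone, and 0 under every other alternative. The interaction gave 139 genes with DESeq2, 164 with the block, 140 with the block and the groups alone, 295 with a block for each background, 24 with glmTreat, and 45 (without WT empty vector library 2) to 141 (without WT Y665F library 3) when 1 library was left out. Stat5b with Y665F was 201% of the empty vector scaled to library totals and 192 to 221% with 1 library left out. Of 180 single genes under 14 alternatives, 3 values changed sign, none of them called. With 1 library left out, Bcl2 was -0.26 to 0.047 (above 0 without Y665F library 3), Cish -0.079 to 0.32 and Il10ra -0.013 to 0.56 (both under 0 without empty vector library 3). Counts of the lists were within 1.5 times in 221 of 320 alternatives and moved in 99. The cause of these differences was not tested.

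A gene at 1 CPM rests on 24.8 to 48.5 reads in these libraries, and rises from under 0.1 CPM on fewer than 5 reads in a library, so that their folds are imprecise. Vector and own Stat5b were not separated, protein was not measured, and with 3 libraries a group a missed threshold does not show that vectors act alike.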
